A study of Mus musculus with 10 samples.

Results

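The genes described here encode the contractile apparatus of the mammary myoepithelial cell and the receptor through which it is told to contract. They are Acta2, Myh11, Cnn1, Mylk, Actg2, Tagln, Myl9, Lmod1 and Oxtr, chosen by symbol, and all 9 were found among the 24000 genes of every deposited table. Female mice were the source of the RNA, taken from mammary epithelium sorted by FACS, and they were Bptf knockout (KO) or Bptf wild type (WT). Bptf is a subunit of the NURF chromatin remodelling complex. The titles give 5 groups of 2 libraries each: KO Bsecs, KO myoepithelial, WT myoepithelial, KO luminal and WT luminal cells. All mice, the wild types included, had been given tamoxifen at 15 mg/kg of body weight in all before the cells were isolated. The labels do not spell out Bsecs, and give neither ages nor the Cre line or its promoter.

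The authors' tables hold 1 mean per gene and group, so no value per library could be read. The means were whole multiples of 1 step per column, and whole read counts were recovered from them for 5 distinct columns. Every fold below therefore compares 1 column with 1 column and has no replicate check. Its 95% interval (exact binomial) covers counting error only, and the labels mention no molecular identifiers. Totals ran from 2036681 to 3840462 counts. Rn45s, the ribosomal RNA precursor, took 32.2% of the Bsecs column and 9.76% to 16.2% of the other 4 columns. The 2 basal (myoepithelial) columns carry conflicting headers: the column with 2036681 counts is headed KO in the table of both basal columns and WT in the table that sets it against Bsecs, and the column with 2359861 counts the reverse. These columns are named smaller and larger basal here, and no direction of genotype was read between them. The KO luminal libraries are KO by title, while their source label names BptfWT mice. Bptf had 645 counts in Bsecs, 420 and 780 in the smaller and larger basal columns, 1018 in KO luminal cells and 640 in WT luminal cells, and counts over the whole gene do not check a deletion of some exons.

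Myoepithelial cells lie beneath the luminal, milk-making cells and share their contractile machinery with smooth muscle. Oxytocin binds its receptor, calcium enters the cytoplasm and activates calmodulin, and myosin light chain kinase phosphorylates the regulatory light chain of myosin, which then pulls on actin filaments. In smooth muscle these genes are driven by serum response factor, which binds CArG boxes together with myocardin family coactivators, and TEAD factors bind MCAT elements in several of the same promoters.

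The 250 bases before the annotated start were available for 6 of the 9 genes, and 4 are shown because they hold a match to at least 1 of these elements. They come from RefSeq on GRCm38.p6 and are written 5′ to 3′ on the gene's strand, with the matches in capitals. Acta2 lies at chr19:34255374-34255623 on the minus strand. Mylk (chr16:34784700-34784949), Myl9 (chr2:156775214-156775463) and Lmod1 (chr1:135324563-135324812) lie on the plus strand.
Acta2: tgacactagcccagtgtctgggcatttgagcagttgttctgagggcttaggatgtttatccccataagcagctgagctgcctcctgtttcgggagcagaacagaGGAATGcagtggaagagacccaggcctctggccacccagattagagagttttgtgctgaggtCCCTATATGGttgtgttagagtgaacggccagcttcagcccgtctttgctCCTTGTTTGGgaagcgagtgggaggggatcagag
Myl9: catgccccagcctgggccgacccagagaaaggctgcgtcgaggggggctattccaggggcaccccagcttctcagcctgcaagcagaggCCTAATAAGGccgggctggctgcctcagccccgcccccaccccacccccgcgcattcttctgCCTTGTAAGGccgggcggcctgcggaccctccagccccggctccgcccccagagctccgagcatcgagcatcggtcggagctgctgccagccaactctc
Mylk: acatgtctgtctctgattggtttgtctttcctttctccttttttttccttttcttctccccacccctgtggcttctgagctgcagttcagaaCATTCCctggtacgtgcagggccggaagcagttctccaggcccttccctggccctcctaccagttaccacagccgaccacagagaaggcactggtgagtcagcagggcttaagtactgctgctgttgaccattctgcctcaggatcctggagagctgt
Lmod1: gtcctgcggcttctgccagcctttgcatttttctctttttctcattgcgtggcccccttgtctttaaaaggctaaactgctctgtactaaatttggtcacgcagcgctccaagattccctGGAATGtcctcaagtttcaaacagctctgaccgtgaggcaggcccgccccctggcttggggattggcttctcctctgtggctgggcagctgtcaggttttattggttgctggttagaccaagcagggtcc

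Acta2 held an MCAT element, GGAATG, 146 to 141 bases before its start and a pair of CArG-like boxes at 84 to 75 and 34 to 25 bases. Each of these boxes has 1 core base that is neither A nor T. Myl9 held a strict CArG box at 161 to 152 bases and a box with 1 such core base at 99 to 90 bases. Mylk held MCAT, read as CATTCC, at 158 to 153 bases, and Lmod1 held GGAATG at 130 to 125 bases. No match was found in these windows of Cnn1 or Oxtr, and windows of Myh11, Actg2 and Tagln were not used here. Both strands were searched, and no capitalised match overlaps another. A strict CArG box was in 1 of the 6 windows, against 1.47% of 32851 promoter windows of the same length. A box with 1 free core base was in 2 of the 6, against 7.24%, and MCAT in 3 of the 6, against 12.6%. These matches are a description of letters, not of bound sites.

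All 9 genes were far more abundant in the sorted basal columns than in the luminal ones. Of every 100000 counts left after Rn45s, they took 19.7 in Bsecs (interval 18.0 to 21.6). The same sum was 1418 in the smaller basal column (1400 to 1436) and 1029 in the larger (1016 to 1043). In KO luminal cells it was 7.43 (6.52 to 8.44), and in WT luminal cells 6.11 (5.17 to 7.17). In this sum Bsecs thus lay above both luminal columns and far below both basal columns. Acta2, Tagln and Myl9 gave 137, 169 and 102 of the 490 Bsecs counts. Cnn1, Actg2 and Oxtr in Bsecs were not above both luminal columns. In these bulk columns, fewer contractile cells and less contractile RNA per cell cannot be told apart.

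Actin and myosin carry the force. Acta2, smooth muscle alpha-actin, had 137 counts in Bsecs, 12512 and 12085 in the smaller and larger basal columns, 92 in KO luminal cells and 38 in WT luminal cells. On a common scale (counts divided by median-of-ratios factors over the 5 columns) these are 144, 16616, 11621, 66.5 and 33.9 normalised counts. Both basal columns stood apart from the other 3 columns by more than an order of magnitude. Myh11, the smooth muscle myosin heavy chain, had 19 counts in Bsecs, 3463 and 4223 in the smaller and larger basal columns, 25 in KO luminal cells and 8 in WT luminal cells. Its level in Bsecs lay beside that of KO luminal cells, at 20.0 and 18.1 normalised counts. Actg2, the enteric gamma-actin, had 2 counts in Bsecs, 699 and 374 in the smaller and larger basal columns, 5 in KO luminal cells and 8 in WT luminal cells, so that Bsecs held the lowest of the 5 values, though not beyond counting error from either luminal column. The coding sequences of Acta2 and Actg2 are 84.4% identical (952 of 1128 bases), and their annotated coding transcripts share 0 stretches of 50 bases. Myh11 and its non-muscle relative Myh9 share 26 such stretches, 0.391% of those of Myh11.

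The myosin-activating arm is Mylk, the light chain kinase, and Myl9, the regulatory light chain it phosphorylates. Mylk had 29 counts in Bsecs, 1776 and 1621 in the smaller and larger basal columns, 4 in KO luminal cells and 1 in WT luminal cells. Myl9 had 102 counts in Bsecs, 970 and 765 in the smaller and larger basal columns, 7 in KO luminal cells and 0 in WT luminal cells. Both genes thus showed the same order, basal, Bsecs, luminal, with Bsecs well above the luminal columns.

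The filament-binding members are Cnn1 (calponin, which restrains actomyosin), Tagln (transgelin, also called SM22 alpha, an actin-binding protein) and Lmod1 (leiomodin, which starts actin filaments). Cnn1 had 4 counts in Bsecs, 1929 and 627 in the smaller and larger basal columns, 11 in KO luminal cells and 1 in WT luminal cells. Tagln had 169 counts in Bsecs, 2190 and 1448 in the smaller and larger basal columns, 86 in KO luminal cells and 88 in WT luminal cells. Lmod1 had 27 counts in Bsecs, 506 and 473 in the smaller and larger basal columns, 10 in KO luminal cells and 3 in WT luminal cells. Cnn1 was near the floor of 3 counts in Bsecs, whereas Tagln was readily counted in every column. Oxtr, the oxytocin receptor, had 1 count in Bsecs, 157 and 306 in the smaller and larger basal columns, 0 in KO luminal cells and 2 in WT luminal cells, so outside the basal columns it was at or below that floor.

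**Figure D1:**
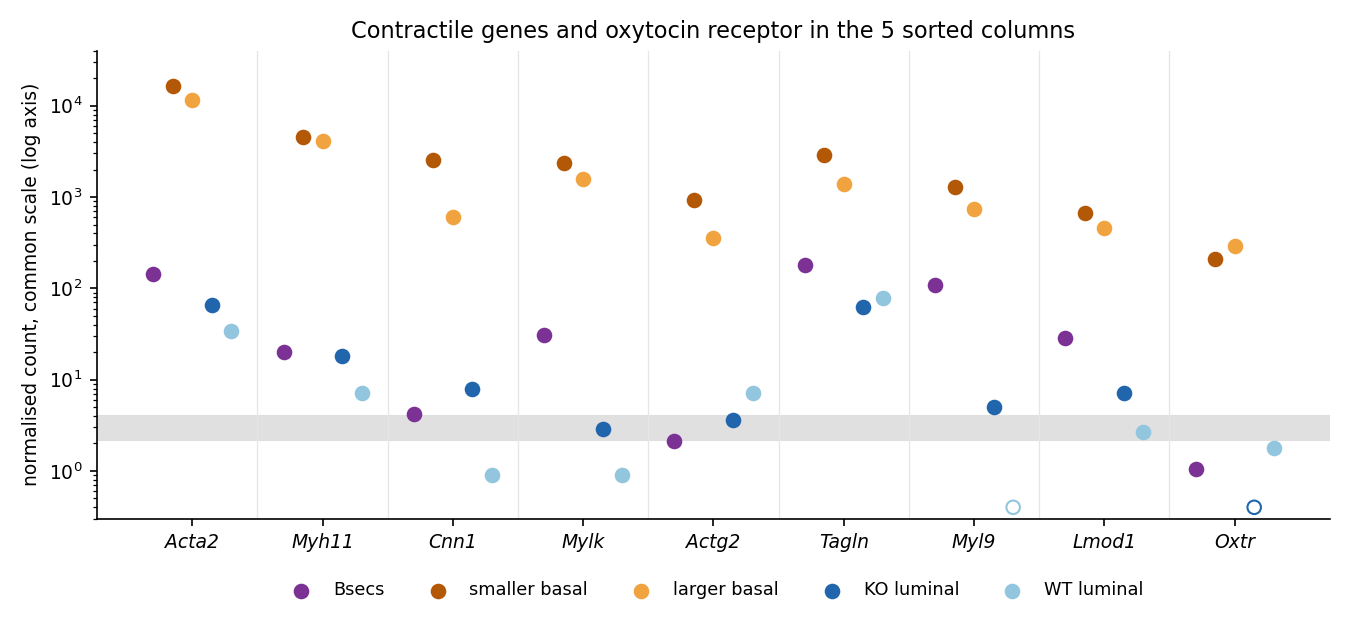
Normalised counts on the common scale (log axis) of the 9 genes in Bsecs, smaller basal, larger basal, KO luminal and WT luminal columns, 1 point per column. Every gene has its 2 highest points in the basal columns, and Acta2 stands highest there at 16616 and 11621 normalised counts.

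Per length, the order within the basal columns was led by actin. Acta2 had 8165 normalised counts per kb of its longest coding transcript in the smaller basal column and 5711 in the larger. Tagln followed with 1823 and 873, and Myl9, Cnn1, Myh11 and Actg2 lay between 696 and 1142 in the smaller column and between 253 and 652 in the larger. Mylk had 301 and 199, Lmod1 170.2 and 115, and Oxtr, as the receptor, was the least abundant in either column at 44.3 and 62.6. In Bsecs the per-kb order was different, with Tagln first at 112, Myl9 at 95.3 and Acta2 next at 70.9, and the other 6 genes between 0.224 and 7.20. Genes next to each other in these orders, such as Myh11 at 702 and Actg2 at 696 in the smaller column, were not tested against each other.

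No deposited table sets basal against luminal cells, so this difference is given without a test. All 9 genes were at least 4-fold higher in each of the 4 pairs of a basal over a luminal column, among genes whose mean over the pair was at least 50. Of all such genes, 9.06% passed for the smaller basal over the KO luminal column, 10.5% over WT luminal, 8.11% for the larger basal over KO luminal and 8.38% over WT luminal. The genes were listed as myoepithelial genes, so the direction is what the list's name says. The median log2 fold of values plus 1 was 7.73, 8.89, 6.93 and 8.32 in these pairs, against -0.32, -0.22, -0.02 and 0.09 over all genes. Acta2 was 490-fold higher in the smaller basal than in the WT luminal column (357 to 693) and 343-fold higher in the larger basal column (249.5 to 484). Tagln had the smallest folds in every pair, from 46.8 (37.7 to 58.7) for the smaller basal over KO luminal to 17.7 (14.3 to 22.2) for the larger basal over WT luminal. Over KO luminal cells Mylk, on 4 counts there, was 816-fold (318 to 2997) and 539-fold higher (210.1 to 1981) in the smaller and larger basal columns. Over the same column Myh11 was 254-fold and 225-fold, Cnn1 322-fold and 75.8-fold, Actg2 257-fold and 99.5-fold, Myl9 255-fold and 145-fold and Lmod1 92.9-fold and 62.9-fold higher. Oxtr, at 0 in KO luminal cells, was at least 96.1-fold and 136-fold higher against a floor of 3 counts in that column, so its place among these folds is not known.

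In the basal columns, markers of other contractile or stromal cells had fewer counts than the 9 genes, which summed to 24202 in the smaller and 21922 in the larger. Of 9 pericyte and vascular smooth muscle markers, 5 were detected in Bsecs, 6 and 8 in the smaller and larger basal columns, 5 in KO luminal cells and 4 in WT luminal cells. Their summed counts were 55 in Bsecs, 86 and 314 in the smaller and larger basal columns, 370 in KO luminal cells and 204 in WT luminal cells, where Notch3 alone gave 343 and 178 of the luminal counts. Higd1b was at 0 in all 5 columns, Kcnj8 was at 0 in all but the larger basal column (2 counts), and Abcc9 was at 0 in Bsecs, the smaller basal and the KO luminal column but had 39 counts in the larger basal column. The 5 endothelium markers summed to 9 counts in Bsecs, where Pecam1, Kdr, Tek and Vwf were at 0. They summed to 55 and 243 counts in the smaller and larger basal columns, 81 in KO luminal cells and 58 in WT luminal cells. Vwf alone gave 78 and 42 of the KO and WT luminal counts. The 7 fibroblast markers summed to 737 counts in Bsecs, 1094 and 2731 in the smaller and larger basal columns, 1434 in KO luminal cells and 924 in WT luminal cells. Dcn alone gave 1360 and 868 of the KO and WT luminal counts, and Fn1 gave 808 of those in the smaller basal column. Lum, Col1a1, Col1a2, Col3a1 and Pdgfra had 0 to 22 counts each in the luminal columns and 3 to 81 in the smaller basal column. The 8 markers of skeletal and cardiac muscle summed to 23 to 58 counts per column, with Tnnt3 and Myh6 at 0 in all 5. Sums over different genes do not give shares of cells, and the part of these cells in the values of the 9 genes was not tested.

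Bsecs were set against each basal column in a table of its own. Over the larger basal column Myh11, Cnn1, Actg2 and Oxtr fell in Bsecs, the 4 of the 9 genes that passed an adjusted p of 0.05, while 0.254% of all 14986 genes tested passed in that direction. The p-values are those of the authors' deposited table (DESeq, per the submitters' processing notes), adjusted here by the Benjamini-Hochberg method over all genes. Oxtr was 278-fold lower in Bsecs (49.6 to 11023), with an adjusted p from the authors' deposited table of 0.0157. Myh11 was 202-fold lower (129 to 336; adjusted p 0.0478 from the authors' deposited table), and Actg2 and Cnn1 170-fold (46.7 to 1409; adjusted p 0.0157) and 142.5-fold lower (55.4 to 525; adjusted p 0.0103).

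The other 5 genes did not pass. Acta2, at 80.2-fold lower in Bsecs (67.8 to 95.6), had an adjusted p of 0.834 in the authors' deposited table, although its fold was larger than that of Mylk at 50.8 (35.2 to 76.1; adjusted p 0.059). Lmod1 was 15.9-fold lower (10.8 to 24.4), Tagln 7.79-fold (6.64 to 9.19) and Myl9 6.82-fold (5.54 to 8.47). All 9 genes had an unadjusted p below 0.05 in the authors' deposited table, the highest 0.0340, against 4.61% of all genes tested. All 9 were also at least 4-fold lower, a rule that 7.47% of genes with a mean of at least 50 met. The exact test of edgeR, run at an assumed dispersion of 0.16, called all 9 lower at a false discovery rate of 0.05, with 5.03% of genes so called. The median log2 fold of the 9 genes was -6.32, against -0.21 over all genes.

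Against the smaller basal column the same direction held, with Bsecs as the shared column of both comparisons. There 5 of the 9 genes fell, Myh11, Cnn1, Mylk, Actg2 and Oxtr, while 0.38% of the 13698 genes tested passed in that direction. Cnn1 was 612-fold lower in Bsecs (239 to 2250; adjusted p 0.000923 from the authors' deposited table), and Actg2 444-fold lower (122 to 3672; adjusted p 0.00075). Myh11 was 231-fold lower (148 to 385; adjusted p 0.0211 from the authors' deposited table), Oxtr 199-fold (35.3 to 7923; adjusted p 0.0454) and Mylk 77.8-fold (54.0 to 116.5; adjusted p 0.0255). Mylk was thus the single member called in this table and not in the other, where its adjusted p was 0.059, and the difference between the tables was not tested.

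Acta2 was 116-fold lower than in the smaller basal column (98.0 to 138), with an adjusted p of 0.744 in the authors' deposited table. Lmod1 was 23.8-fold lower (16.2 to 36.5), Tagln 16.5-fold (14.1 to 19.4) and Myl9 12.1-fold (9.84 to 15.0), none of them past the threshold. All 9 unadjusted p-values of the authors' deposited table were below 0.05, the highest 0.0257, with 4.91% of all genes tested there. All 9 genes were at least 4-fold lower, where 8.11% of genes were, and the edgeR test called all 9, with 5.01% of genes. The median log2 fold was -6.56, against 0.10 over all genes. Tagln, Myl9 and Lmod1 had the 3 smallest folds against either basal column.

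**Figure D2:**
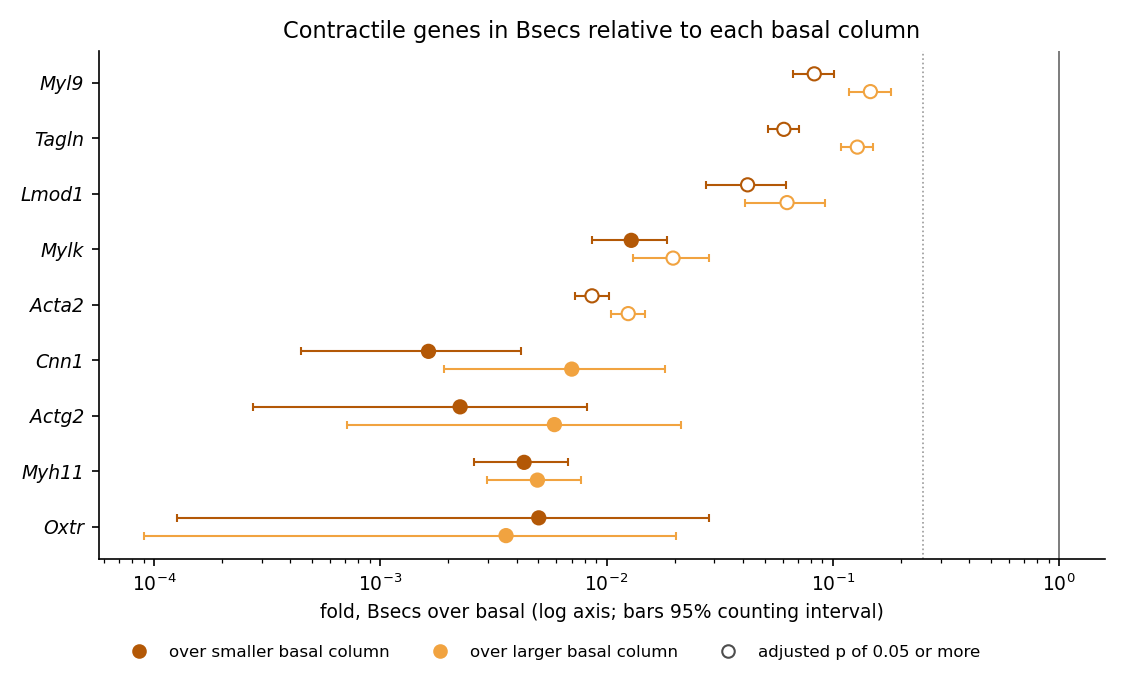
Fold of Bsecs over the smaller and over the larger basal column for each of the 9 genes (log axis, bars are 95% counting intervals). Filled points have an adjusted p below 0.05, the dotted line marks 4-fold lower and the solid line equality; all 18 points lie left of the dotted line, with Myl9, Tagln and Lmod1 nearest to it.

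Of the 6 basal epithelium markers, Bsecs had more of 3 and less of 3 against the smaller basal column, and more of 4 and less of 2 against the larger, with 0 called in either direction. Krt14, a basal keratin, had 8490 counts in Bsecs and 5711 and 2175 in the smaller and larger basal columns, 1.17-fold (1.13 to 1.21) and 4.29-fold (4.10 to 4.50) as high. Krt5, its keratin partner, had 3139 counts in Bsecs and 2392 and 1844 in the smaller and larger basal columns, 1.03-fold (0.980 to 1.09) and 1.87-fold (1.77 to 1.98) as high. Scaled by all counts, Krt14 and Krt5 were instead 0.827 and 0.730 of their level in the smaller basal column, and 2.52-fold and 1.10-fold as high as in the larger. Krt17, another basal keratin, was 0.657 and 2.46 of its level in the smaller and larger basal columns, Cdh3 (P-cadherin) 0.519 and 0.830, Trp63 0.912 and 0.268, and Itgb4 (integrin beta 4) 3.80 and 5.15. Neither Krt14 nor Krt5 passed in the authors' deposited tables, with an adjusted p of 1 in both. The 7 luminal epithelium markers summed to 53755 counts in Bsecs, against 2680 and 3596 in the smaller and larger basal columns, and to 96889 in KO luminal cells and 59283 in WT luminal cells. Cldn4 alone gave 37070 of these counts in Bsecs, 37369 in KO luminal cells and 13795 in WT luminal cells. Of the 7 markers, 5 were lower in Bsecs than in KO luminal cells and 6 lower than in WT luminal cells. Krt8, Krt18 and Cldn3 were at least 4-fold lower in Bsecs than in KO luminal cells. Whether luminal cells in the Bsecs gate lowered the contractile values was not tested.

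The mix of contractile transcripts also differed. Of the counts of the 9 genes, Acta2 made up 28.0% in Bsecs, against 51.7% and 55.1% in the smaller and larger basal columns. Tagln made up 34.5% in Bsecs (30.3 to 38.9), against 9.05% and 6.61%, and Myl9 20.8% (17.3 to 24.7), against 4.01% and 3.49%. The luminal columns were likewise rich in Tagln, at 35.8% in KO luminal cells and 59.1% (50.7 to 67.0) in WT luminal cells. Myl9, at 2.92% in KO luminal cells and 0% in WT luminal cells, did not share that. The share of Myh11 was 3.88% in Bsecs, against 14.3% and 19.3% in the smaller and larger basal columns.

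**Figure D3:**
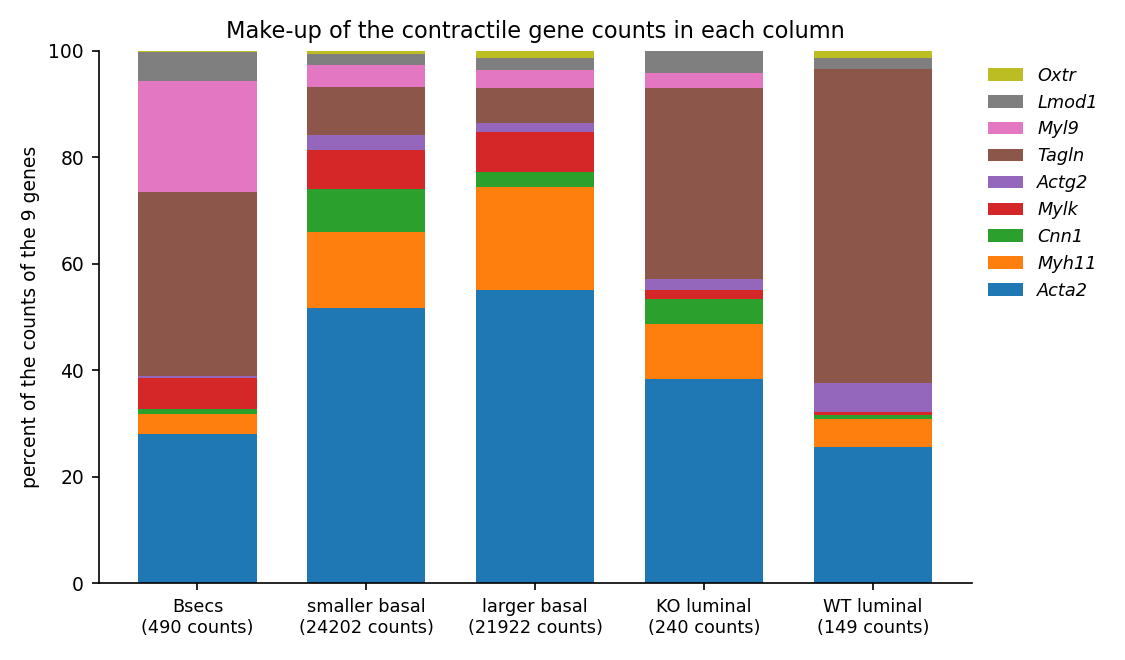
Percent of the counts of the 9 genes taken by each gene in each column, with the summed counts under the column names (490 in Bsecs, 24202 smaller basal, 21922 larger basal, 240 KO luminal, 149 WT luminal). Acta2 takes over 50% in both basal columns, while Tagln takes the largest share in Bsecs and WT luminal cells; shares are not corrected for transcript length.

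Several of these proteins have a relative that non-muscle cells use, and 5 such pairs were compared within each column, chosen after their values were seen. Acta2 gave 0.478% of the counts of Acta2 and Actb (cytoplasmic beta-actin) in Bsecs, against 57.4% and 65.1% in the smaller and larger basal columns, and 0.297% and 0.206% in KO luminal and WT luminal cells. Myh11 gave 0.214% of the counts of Myh11 and Myh9 (a non-muscle myosin heavy chain) in Bsecs, against 57.7% and 64.4% in the smaller and larger basal columns. In either pair the smooth muscle form was the larger part in basal cells and a trace in Bsecs, as in luminal cells. Myl9 departed from this, with 7.54% (6.19 to 9.08) of the counts of Myl9 and Myl12a in Bsecs, 68.5% and 60.3% in the smaller and larger basal columns, 0.408% (0.164 to 0.838) in KO luminal cells and 0 of 843 counts in WT luminal cells, which allows a share of up to 0.356% (3 counts of the total). Cnn1 gave 0.313% of the counts of Cnn1 and Cnn2 in Bsecs, against 83.6% and 51.4% in the smaller and larger basal columns. Tagln gave 1.01% (0.862 to 1.17) of the counts of Tagln and Tagln2 in Bsecs, against 51.2% and 31.2%. It was the smaller part of its pair in the larger basal column. In KO and WT luminal cells Tagln gave 0.679% (0.543 to 0.838) and 2.81% (2.26 to 3.45), the latter above its share in Bsecs. There Cnn1 gave 1.73% (0.865 to 3.07) and 0.546% (0.0138 to 3.01) of its pair.

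**Figure D4:**
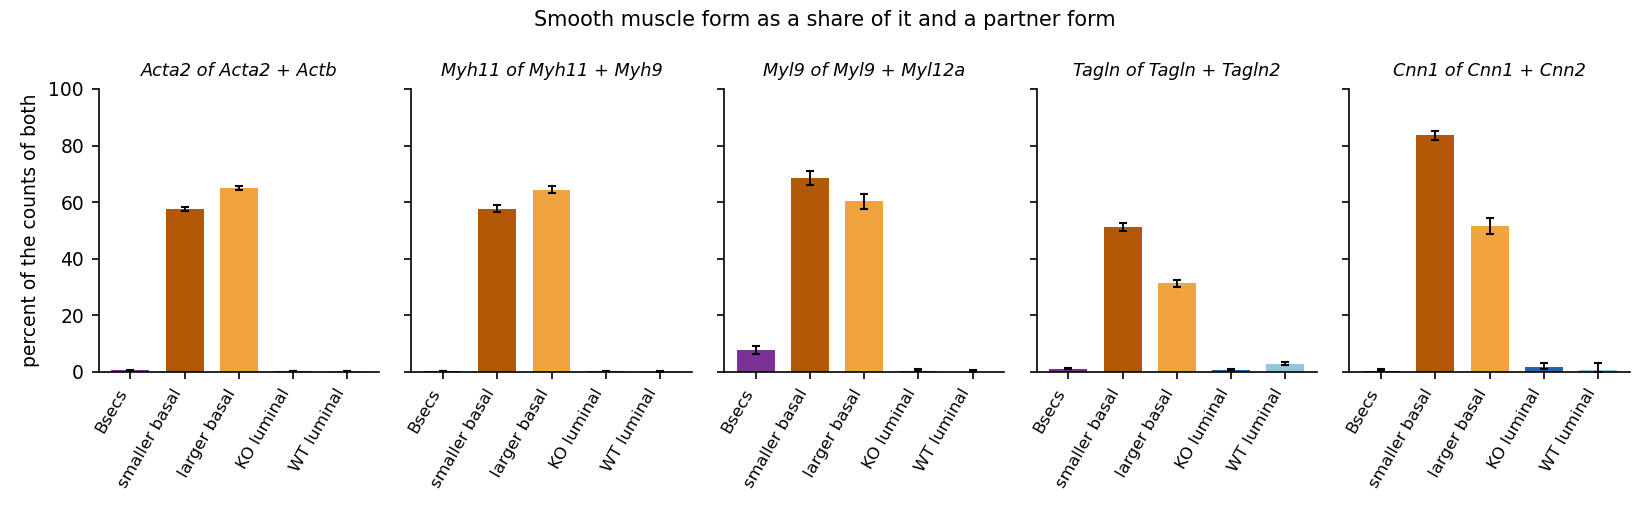
Counts of the smooth muscle form as a percent of it and its partner in each column, 1 panel per pair, bars with exact binomial 95% intervals. In the 2 basal columns the bars lie between 31.2% and 83.6%, and in Bsecs and both luminal columns at 7.54% or below.

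Among members with a fold, every one except Myl9 had smaller folds, as point values, in Bsecs over luminal than over basal cells. For Mylk, Lmod1 and Cnn1 the intervals over WT luminal cells overlapped those over both basal columns, so this order is not settled. The interval of Mylk over KO luminal cells also overlapped that over the larger basal column. Against KO luminal cells 0 of the 9 genes passed, where 0.00676% of 14800 genes were called higher in Bsecs and 0.0338% lower, from the adjusted p-values of the authors' deposited table (DESeq). Among the 9 genes, only Myl9 had an unadjusted p below 0.05 there, 0.0216 in the authors' deposited table, with an adjusted p of 0.97, where 3.82% of all genes had an unadjusted p below 0.05. It was 21.9-fold higher in Bsecs (10.2 to 55.7) and the 1 member at least 4-fold higher with a mean over both columns of at least 50, as 6.42% of genes with that mean were. Mylk and Lmod1 had lower means and could not pass that rule. The edgeR test called 2 members higher, Myl9 and Mylk, with 2.98% of genes so called, and Mylk was 10.9-fold higher (3.82 to 42.6). Lmod1 was 4.05-fold (1.90 to 9.38), Tagln 2.95-fold (2.26 to 3.87) and Acta2 2.23-fold higher (1.70 to 2.94). The intervals of Myh11, Cnn1 and Actg2 included 1, and the log2 fold of Myh11 changed sign with the scale, 0.19 here, -0.016 by totals without Rn45s and -0.33 by all counts. No fold was computed for Oxtr, at 1 count in Bsecs and 0 in KO luminal cells.

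Against WT luminal cells 0 of the 9 genes passed again, where 0.119% of 14304 genes were called higher in Bsecs and 0.0909% lower. Myl9, with 102 counts in Bsecs and 0 in WT luminal cells, was at least 41.8-fold higher against a floor of 3 counts in the WT luminal column. Its p was 0.00218 in the authors' deposited table, and its adjusted p 0.279. It was the 1 member with an unadjusted p below 0.05 there, as 4.29% of all genes had. Mylk was 35.7-fold higher on 1 WT luminal count (5.92 to 1458) and Lmod1 11.1-fold higher on 3 (3.41 to 57.1). Acta2 was 4.44-fold higher in Bsecs (3.08 to 6.54), Myh11 2.92-fold (1.22 to 7.72) and Tagln 2.36-fold higher (1.82 to 3.09). Scaled by all counts, the log2 folds of Acta2 and Tagln, 2.15 and 1.24 here, were 1.43 and 0.52. Acta2 and Myl9 were the members at least 4-fold higher with a mean of at least 50, as 9.21% of genes with that mean were. Acta2 lost that call under both other scales, with a log2 fold of 1.83 by totals without Rn45s. The edgeR test called Myl9, Mylk and Lmod1, with 5.25% of genes called. The intervals of Cnn1 and Actg2 included 1, and no fold was computed for Oxtr, at 1 count in Bsecs and 2 in WT luminal cells. Both luminal comparisons share the Bsecs column.

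The 2 basal columns were close in most members. None of the 9 passed in the table that sets the smaller basal column over the larger, where 0.0137% of 14595 genes were called in each direction. Cnn1 stood apart at 4.31-fold higher in the smaller column (3.93 to 4.72), with 1929 counts against 627. Its p in the authors' deposited table was 0.0117 and its adjusted p 1, and it was the only member with an unadjusted p below 0.05, as 3.09% of all genes had. It was also the 1 member past 4-fold, as 3.56% of genes were. That call was lost under both other scales, where its log2 fold of 2.11 became 1.94 by totals without Rn45s and 1.83 by all counts. The edgeR test called none, with 0.774% of genes called higher and 1.62% lower. Actg2 was 2.62-fold (2.30 to 2.97), Tagln 2.12-fold (1.98 to 2.26) and Myl9 1.78-fold higher (1.61 to 1.95) in the smaller column. Mylk, Lmod1 and Acta2 were between 1.45-fold and 1.53-fold higher. Myh11 was 1.15-fold higher (1.10 to 1.20), on 3463 against 4223 counts, and scaled by all counts its sign turned, to a log2 fold of -0.074. Oxtr went the other way, at 0.718 of its level in the larger column (0.589 to 0.874). The larger column held more of the pericyte, fibroblast and endothelium markers (above), while the 6 basal epithelium markers summed to 14903 and 7480 counts in the smaller and larger columns. Once scaled, 5 of these 6 were higher in the smaller column. Trp63 went against the sum, with 82 counts there against 390, or 109 against 375 normalised counts. The part of all these markers in the differences between the basal columns was not tested.

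Between the luminal columns the members had few counts. None of the 9 passed in the table of KO over WT luminal cells, where 0.0543% of 14736 genes were called higher and 0.0339% lower, and 0 members had an unadjusted p below 0.05 in the authors' deposited table, against 3.74% of all genes. Acta2 had 92 counts in KO luminal cells and 38 in WT luminal cells, 1.93-fold higher (1.31 to 2.89). Myh11, with 25 and 8 counts, was 2.49-fold higher (1.09 to 6.39), and Cnn1, with 11 and 1, was 8.76-fold higher (1.27 to 377). The interval of Tagln, at 0.779 of its WT luminal level (0.572 to 1.06), included 1, and so did those of Actg2, Mylk and Lmod1. Myl9, at 7 counts in KO luminal cells and 0 in WT luminal cells, was at least 1.86-fold higher against a floor of 3 counts in the WT luminal column. No fold was computed for Oxtr, at 0 and 2 counts. Basal epithelium markers summed to 1887 counts in KO luminal cells and 485 in WT luminal cells, with 0 of the 6 called. Itgb4 alone gave 1002 and 337 of these counts. Its common-scale value in KO luminal cells, 724, was above those of the smaller and larger basal columns, 478 and 357. All 6 markers were detected in both luminal columns, among them Krt14 at 298 and 54 counts and Krt5 at 42 and 1. The part of these markers in these folds was not tested.

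Beyond the 9 genes, 22 other contractile and thin filament genes were measured, from a list that is broader than smooth muscle. Against the larger basal column 1 of the 22 fell in Bsecs and 0 rose, beside 0.254% and 0.227% of all genes, and against the smaller basal column 3 fell and 0 rose, beside 0.38% in each direction, by the adjusted p-values of the authors' deposited tables. The list's median log2 fold was -0.0054 over the larger and -0.44 over the smaller basal column, against -0.21 and 0.10 over all genes. Synm, an intermediate filament protein of muscle, had 0 counts in Bsecs and 171 and 214 in the smaller and larger basal columns. Against a floor of 3 counts in the Bsecs column it was at least 72.4-fold and 64.8-fold lower, with adjusted p-values of 0.0153 and 0.0196 from the authors' deposited tables. It is named after its values were seen. Pgm5, a protein of muscle adhesion sites, and Pdlim3, a PDZ and LIM domain protein of muscle also passed against the smaller basal column. They were 356-fold (63.3 to 14092) and 104-fold lower there (35.1 to 506), with adjusted p-values of 0.00608 and 0.026 from the authors' deposited table.

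Other genes of that list did not pass, and the following were picked after their values were seen. Synpo2, an actin-binding protein of muscle, was 27.7-fold (12.4 to 76.9) and 25.8-fold lower (11.6 to 71.2) in Bsecs than in the smaller and larger basal columns. Tns1, tensin, an actin-binding protein of adhesion sites, was 8.43-fold (7.12 to 10.03) and 4.02-fold lower (3.37 to 4.81). Tpm1, a tropomyosin that lies along actin filaments, had 16151 counts in Bsecs and 9193 and 8780 in the smaller and larger basal columns, 1.38-fold and 2.02-fold as high. Tpm2, another tropomyosin, was 0.655 and 0.896 of its level in the smaller and larger basal columns. Cald1, caldesmon, was 0.341 and 0.876 of its level there, and Flna, an actin crosslinker, 0.738 and 1.10. Tagln2, the broadly expressed relative of Tagln, was 6.26-fold and 5.73-fold higher in Bsecs. In Bsecs Tpm1, Tpm2, Cald1 and Flna thus stood at 0.341 to 2.02 of their basal level, and at 0.241 to 1.19 when scaled by all counts, while the 9 genes were 6.82-fold to 612-fold lower. Scaled by all counts, Tpm1 over the smaller basal column (0.978) and Flna over the larger (0.644) turned below 1.

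**Figure D5:**
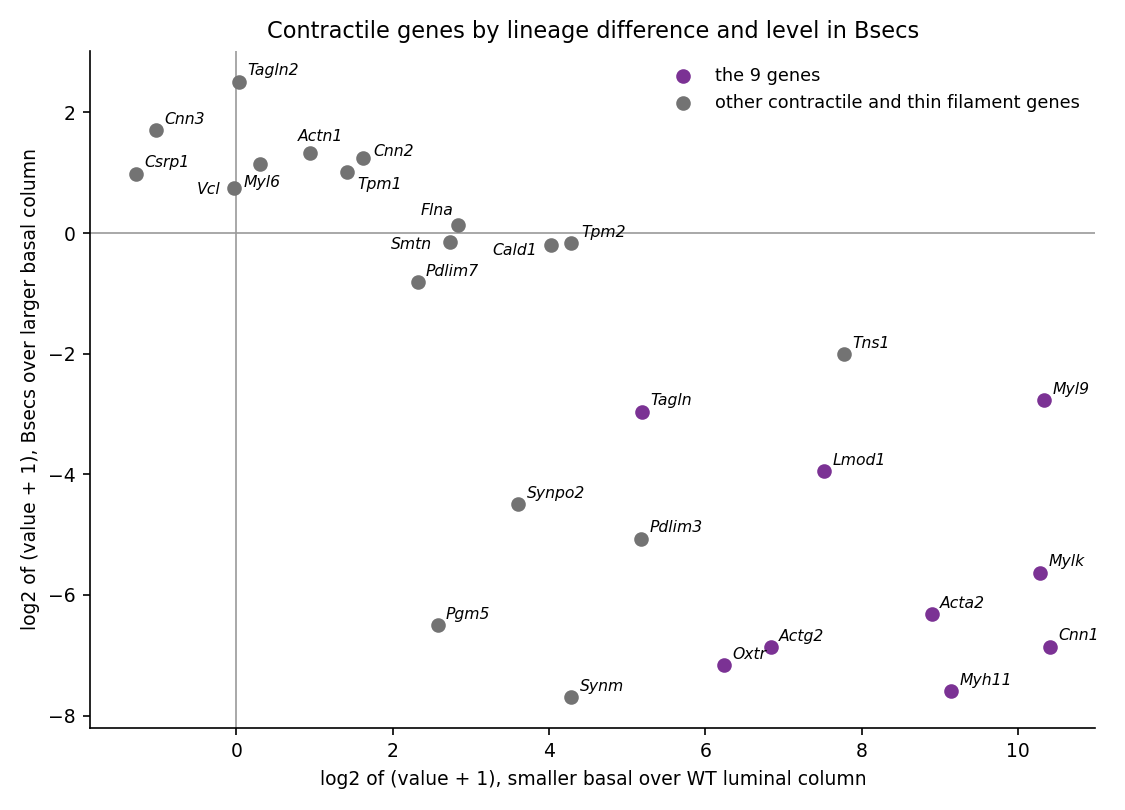
The 9 genes and the other contractile and thin filament genes with a mean over the 5 columns of at least 50. The x axis is the log2 ratio (values plus 1) of the smaller basal over the WT luminal column. The y axis is that of Bsecs over the larger basal column. The 9 genes lie at the lower right, between -7.59 and -2.76 on the y axis. Of the other genes, Synm, Pgm5, Pdlim3 and Synpo2 lie there too, between -7.69 and -4.49, while Tpm1, Tpm2, Cald1 and Flna lie near or above 0.

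Of 7 other cytoplasmic actin and non-muscle myosin genes, 0 passed against the larger basal column and 1 rose against the smaller, where 0.227% and 0.38% of all genes were called higher. That gene was Myh14, a non-muscle myosin heavy chain, with 822 counts in Bsecs and 1 and 23 in the smaller and larger basal columns. It was 647-fold higher than in the smaller basal column (116 to 25600; adjusted p 0.00075 in the authors' deposited table) and 39.3-fold higher than in the larger (26.0 to 62.4; adjusted p 0.059). Actb was 2.42-fold and 4.83-fold higher and Myh9 2.74-fold and 4.17-fold higher in Bsecs than in the smaller and larger basal columns, none of them past the threshold.

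Of 10 SRF, myocardin and lineage regulators, which include the Notch ligand Jag1, 0 passed in either table of Bsecs against a basal column. At the shares of all genes given above, 0.227% to 0.38% per direction, a count of 0 says little about a list of this size, here and for the lists that follow. The median log2 fold was -0.37 over the larger and -0.12 over the smaller basal column, against -0.21 and 0.10 over all genes. Srf, serum response factor, had 957 counts in Bsecs, 680 and 399 in the smaller and larger basal columns, 1939 in KO luminal cells and 1114 in WT luminal cells. Myocd, myocardin, had 0 counts in Bsecs, 4 and 7 in the smaller and larger basal columns, 2 in KO luminal cells and 0 in WT luminal cells, so it was at or near the floor in every column. Mkl1 and Mkl2, of the same family, are named after their values were seen. Mkl1 had 57 counts in Bsecs, and 288 and 170 in the smaller and larger basal columns. In KO and WT luminal cells it had 254 and 57. It was 6.42-fold lower in Bsecs than in the smaller basal column (4.81 to 8.68), without passing. Mkl2 had 253 counts in Bsecs, and 173 and 181 in the smaller and larger basal columns. In KO and WT luminal cells it had 416 and 183. Trp63, the p63 regulator of basal epithelium, had 95 counts in Bsecs, 82 and 390 in the smaller and larger basal columns, 25 in KO luminal cells and 4 in WT luminal cells.

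Of 17 genes of oxytocin receptor signalling and calcium, 0 passed. Cacna1c, an L-type calcium channel subunit, was 5.02-fold and 7.62-fold lower in Bsecs than in the smaller and larger basal columns, and Calm2, one of the calmodulin genes, 5.43-fold and 6.88-fold higher. Of 10 other receptors of contractile cells, 8 had a count in the table with the larger basal column and 7 in that with the smaller, and 0 passed. Ednra, an endothelin receptor, had 0 counts in Bsecs, 48 and 35 in the smaller and larger basal columns and 0 in both luminal columns. Cacna1c, Calm2 and Ednra are named after their values were seen.

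The genes whose pattern was most like the average of the 9 were found over the 5 columns, among 6323 genes with a common-scale mean of at least 50. Likeness was the root mean square difference of centred log2(value + 1). Antxr1, an anthrax toxin receptor that binds extracellular matrix, was closest at 0.41, with Reln (reelin) at 0.59, Spock2 at 0.60 and Col14a1 at 0.67. Ptprm and Adam12 at 0.73, Gfra1 at 0.82, Fstl1 at 0.85 and Layn at 0.86 were also among the 10 nearest. Acta2 itself was at 0.31 from the average, and Tagln and Myl9 were the farthest members, at 1.35 and 1.52. Antxr1 had 2 counts in Bsecs, 221 and 356 in the smaller and larger basal columns, 1 in KO luminal cells and 0 in WT luminal cells. With 5 columns, this likeness is a description only.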

How the data were processed

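RNA of FACS-sorted cells was extracted with TRIzol and made into libraries with the Ovation RNA-seq V2 and Ovation Ultralow DR kits, per the labels' protocols. STAR, DESeq and mm9 are named in the submitters' processing notes. Versions, read counter, annotation and strand handling were not given in the sources used here. Since no molecular identifiers are mentioned, amplification could distort counts of rare transcripts. The authors deposited 6 tables of 24000 genes, each with a mean signal per group (normalised counts), their ratio (fold) and an unadjusted p-value, per the file headers. The deposited log2 column was left out because part of it holds spreadsheet errors. The tables hold 0 columns per library.

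All means were whole multiples of 1 step per column (100% within 0.01), from which whole counts were recovered. The steps of the 2 columns of a table multiply to 1, so each deposited p-value compares 1 column with 1 column. Deposited ratios run in differing directions, so folds were recomputed from the means. Calls used the authors' p-values after Benjamini-Hochberg adjustment at 0.05. Alternatives were edgeR 4.0.16's exact test on the recovered counts (assumed dispersion 0.16) and a fold of at least 4 with a mean of at least 50. A count of 0 was set to a floor of 3 per column for a fold. The design had allowed for columns per library, and the quasi-likelihood test for those could not be run. The code was checked on simulated data.

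The members and the 11 other gene lists were chosen with earlier results of these data known. All 9 members are covered in every comparison. Of other lists, called genes with the largest change and both means above 0 were to be named, but not every such gene is. Genes that were not called, such as Srf, Myocd, Trp63, Actb and Myh9, are named as well. Some genes picked after their values were seen are marked where they stand. Like patterns are the 10 nearest genes, passing over predicted genes and small RNAs. Some results are not reported here. Transcript lengths are of GENCODE M21.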

Additional observations from a re-analysis of the deposited data

How the results depend on the processing

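No paired analysis was possible because the tables hold 1 mean column per group and no columns per library, and for the same reason no replicate could be left out. Of the 9 genes, the authors' adjusted p-values called 4 lower in Bsecs against the larger basal column and 5 against the smaller, while the edgeR exact test and the 4-fold rule each called 9 in both comparisons. Against KO luminal cells the 0 genes called higher in Bsecs became 2 by edgeR and 1 by the 4-fold rule. Against WT luminal cells 0 became 3 and 2. Between the smaller and the larger basal column 0 became 1 by the 4-fold rule. These rules differ by construction, since a fold rule uses no spread and the edgeR test assumes one. The 9 genes at least 4-fold higher in basal than in luminal columns stayed at 9 in all 4 pairs with other scales, thresholds of 2-fold and 8-fold, or no minimum mean.

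Scaling by all counts shifted log2 folds by up to -0.77 (Bsecs over larger basal), and by totals without Rn45s by up to -0.36. Of 81 log2 folds of single genes, all counts moved 20 past their counting interval and totals without Rn45s moved 9. All counts turned Myh11 in the smaller over the larger basal column past its interval, to -0.074. Myh11 in Bsecs over KO luminal cells changed sign within its interval, to -0.016 without Rn45s and -0.33 by all counts. With 10 added in place of 1, the median log2 fold of the 9 genes became -4.92 for Bsecs over the larger basal column and -5.81 over the smaller. Genes with under about 10 counts in a column, such as Oxtr, Actg2 and Cnn1 outside the basal columns, have folds known only to within their wide intervals.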
